A study of Mus musculus with 9 samples.

Results

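The enzymes of glycolysis and gluconeogenesis were described in mouse astrocyte cultures that had received medium conditioned by activated microglia. They were taken as the rows of the deposited expression table whose KEGG annotation includes the glycolysis and gluconeogenesis pathway and whose mean over the 6 libraries used was at least 1 FPKM (fragments scaled to transcript length and to the number of mapped fragments). Of 64 annotated rows among the 17730 genes of the table, 44 met that floor. Eno4 was the member closest to the floor from above, with a mean of 1.5 FPKM, and Aldh1b1 was the closest below it, with 0.570 FPKM. The other 19 rows below the floor had means between 0 and 0.343 FPKM. They include the liver enzymes Fbp1, Pck1 and Pklr, and the testis forms Pgk2, Ldhc and Gapdhs. Pgk2, Ldhc and Pklr were listed at 0 in all 6 libraries.

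The cultures were wild-type astrocytes from the brains of C57BL/6 mice at postnatal day 0. The LPS-MCM group (3 libraries) received medium of microglia that had been exposed to LPS (lipopolysaccharide, from the outer membrane of bacteria), and the Hemin-MCM group (3 libraries) received medium of microglia stimulated with hemin, a breakdown product of hemoglobin. The libraries came from polyadenylated RNA with a stranded kit, and the question was how the astrocyte transcriptome under one medium differs from that under the other. Medium of resting microglia was not analysed here, and which of both groups had departed from a resting state cannot be told apart. The labels name no separate cultures or animals, and p-values therefore measure the spread between these libraries, which may be technical. A conditioned medium can also carry the stimulus itself, and the sources used here do not say whether LPS or hemin was removed.

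The libraries had an estimated 34800000 to 38400000 fragments each, so that 1 FPKM stood for about 34.8 to 38.4 fragments per kilobase of transcript. Across genes, log2(FPKM + 1) correlated between libraries at Pearson r of 0.9944 to 0.9968 within a group and 0.9809 to 0.9854 between groups. The astrocyte markers Gfap (456 FPKM in LPS-MCM and 676 FPKM in Hemin-MCM) and Aqp4 (346 FPKM in LPS-MCM and 368 FPKM in Hemin-MCM) were abundant, as the label calls for, and 1 of 8, Gjb6, was below the floor. Markers of microglia and macrophages were abundant as well. The summed level of 12 such genes was 1734 to 1992 FPKM in LPS-MCM and 3732 to 4050 FPKM in Hemin-MCM, most of it from the lysozyme gene Lyz2. In LPS-MCM 10 of the 12 were lower (limma adjusted p under 0.05), as were 13.8% of all tested genes, while 6.72% were higher. Of 5 ependymal markers, 4 could be tested and all 4 were lower in LPS-MCM, with sums of 146 to 157 FPKM against 206 to 213 FPKM in Hemin-MCM. Of 10 oligodendrocyte-lineage markers 7 could be tested and 2 were lower, and of 6 fibroblast markers Dcn and Lum were higher in LPS-MCM while the other 4 had negative differences that did not pass. Of 8 neuronal markers 4 could be tested, with Map2 and Stmn2 lower and Gad1 higher in LPS-MCM, and the list summed to 54.4 to 59.3 FPKM in LPS-MCM and 65.5 to 70.3 FPKM in Hemin-MCM. Map2 missed the threshold without the first LPS-MCM (adjusted p = 0.0654), the first Hemin-MCM (0.0614) or, in that group, the third library (0.0568). The neuronal markers Rbfox3 and Slc17a7 and the endothelial marker Cldn5 averaged under 0.1 FPKM in both groups, and no marker was at 0 in all libraries. The part of other cell types in the differences below was not tested, and in bulk RNA fewer cells of a type and less RNA per cell cannot be told apart.

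Glycolysis splits glucose into pyruvate in the cytosol and yields ATP and NADH. Hexokinase, phosphofructokinase and pyruvate kinase catalyse the committed steps, and the reactions between them run in both directions. Pyruvate is then reduced to lactate by lactate dehydrogenase or enters mitochondria for conversion to acetyl-CoA. Most steps are served by several genes with different tissue distribution and kinetics, and astrocytes are known in the brain for high glycolytic activity and for export of lactate. Inflammatory signals and the hypoxia-inducible transcription factor HIF-1 are known to raise several genes of the pathway in immune cells.

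Sequences before annotated starts of both lactate dehydrogenase genes and of a pair of phosphofructokinase genes are shown because the forms within each pair had log2 differences of opposite sign. HIF-1 binds the letters ACGTG or GCGTG, and both forms were searched on both strands in the 250 bases before each annotated start. Capitals mark the matches, which on the opposite strand read CACGT or CACGC. RefSeq on GRCm38.p6 (identical to build mm10) gave the sequences, 5′ to 3′ on the strand of the gene. The window of the first listed Ldha start lies at chr7:46845554-46845803 on the plus strand. On the minus strand, the windows lie at chr6:142507958-142508207 for Ldhb, chr10:78009808-78010057 for Pfkl and chr13:6648772-6649021 for Pfkp. The Ldha and Pfkp windows lie inside the spans given below for these genes, so each precedes a listed start rather than the whole gene.
Ldha: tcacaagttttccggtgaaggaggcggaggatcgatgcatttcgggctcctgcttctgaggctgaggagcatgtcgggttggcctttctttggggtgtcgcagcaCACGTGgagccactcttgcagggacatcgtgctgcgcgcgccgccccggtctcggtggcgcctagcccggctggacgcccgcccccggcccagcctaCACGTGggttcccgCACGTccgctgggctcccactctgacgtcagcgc
Ldhb: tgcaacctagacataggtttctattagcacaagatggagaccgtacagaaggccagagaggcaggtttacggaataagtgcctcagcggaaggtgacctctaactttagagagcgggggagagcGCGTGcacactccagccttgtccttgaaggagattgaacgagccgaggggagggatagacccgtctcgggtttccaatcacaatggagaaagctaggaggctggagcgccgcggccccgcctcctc
Pfkl: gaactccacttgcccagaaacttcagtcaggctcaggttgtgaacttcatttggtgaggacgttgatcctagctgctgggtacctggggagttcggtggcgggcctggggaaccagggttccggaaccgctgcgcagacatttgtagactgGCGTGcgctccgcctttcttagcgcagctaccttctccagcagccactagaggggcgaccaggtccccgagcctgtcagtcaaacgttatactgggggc
Pfkp: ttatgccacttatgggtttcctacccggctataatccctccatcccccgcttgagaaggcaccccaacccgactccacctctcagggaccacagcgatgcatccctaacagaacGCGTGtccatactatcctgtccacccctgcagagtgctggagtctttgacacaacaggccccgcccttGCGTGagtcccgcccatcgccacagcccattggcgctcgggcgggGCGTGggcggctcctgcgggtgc
The Ldha window held 5 matches of ACGTG, of which 4 come from 2 copies of the palindrome CACGTG counted on both strands, and none of GCGTG. The Ldhb and Pfkl windows held 1 match of GCGTG each, and the Pfkp window held 3. The window of a second listed Ldha start, at chr7:46846832-46847081 on the plus strand, also inside the gene span and not shown, held 1 match of GCGTG and none of ACGTG.

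Across the pathway, 39 of the 44 genes had a promoter in the RefSeq table, with 51 windows in all. ACGTG was present in 35.3% of these windows, against 21.5% of the 12060 windows of all tested genes and 16.6% of all 32851 windows. GCGTG was present in 47.1% of the windows of the pathway, 44.6% of those of tested genes and 28.2% of all. The E-box CACGTG, which contains ACGTG, was present in 7.84% of the windows of the pathway and 8.36% of those of tested genes, and a simplified NF-kB pattern (GGGA, any 4 bases, CC) in 19.6% of the windows of the pathway and 22.7% of those of tested genes. The median GC content was 58.4% for the windows of the pathway and 60.0% for those of tested genes. These motifs were chosen after expression values had been seen, and a match is a description of the letters only.

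Of the 44 enzymes, 3 were higher and 10 were lower in LPS-MCM than in Hemin-MCM, and 31 did not pass the threshold, a limma adjusted p of 0.05. Over all 11688 genes tested, 6.72% were higher and 13.8% were lower in LPS-MCM. The median log2 difference of the 44 enzymes was -0.06, beside -0.04 for all tested genes, and 30 of the 44 were negative. The higher genes were Pfkl, Tpi1 and Pdhx. The lower genes were Hk3, Galm, Pfkp, Aldoc, Ldhb, Acss1, Adh5, Aldh2, Aldh7a1 and Aldh9a1. Among the enzymes that did not pass, 4 were positive and 5 negative at an unadjusted p under 0.05. All 3 higher calls were sensitive to the processing: none was kept when genes of low level entered the fit, without the first Hemin-MCM library or without the third, while limma still gave 7, 5 and 7 positive enzymes at an unadjusted p under 0.05 in those fits. Median-of-ratios scaling gave 7 higher and 9 lower enzymes, and quantile normalization 5 and 10. In the whole table, 32.8% of the called genes were higher in LPS-MCM, beside 49.8% after median-of-ratios scaling and 45.0% after quantile normalization.

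**Figure D1:**
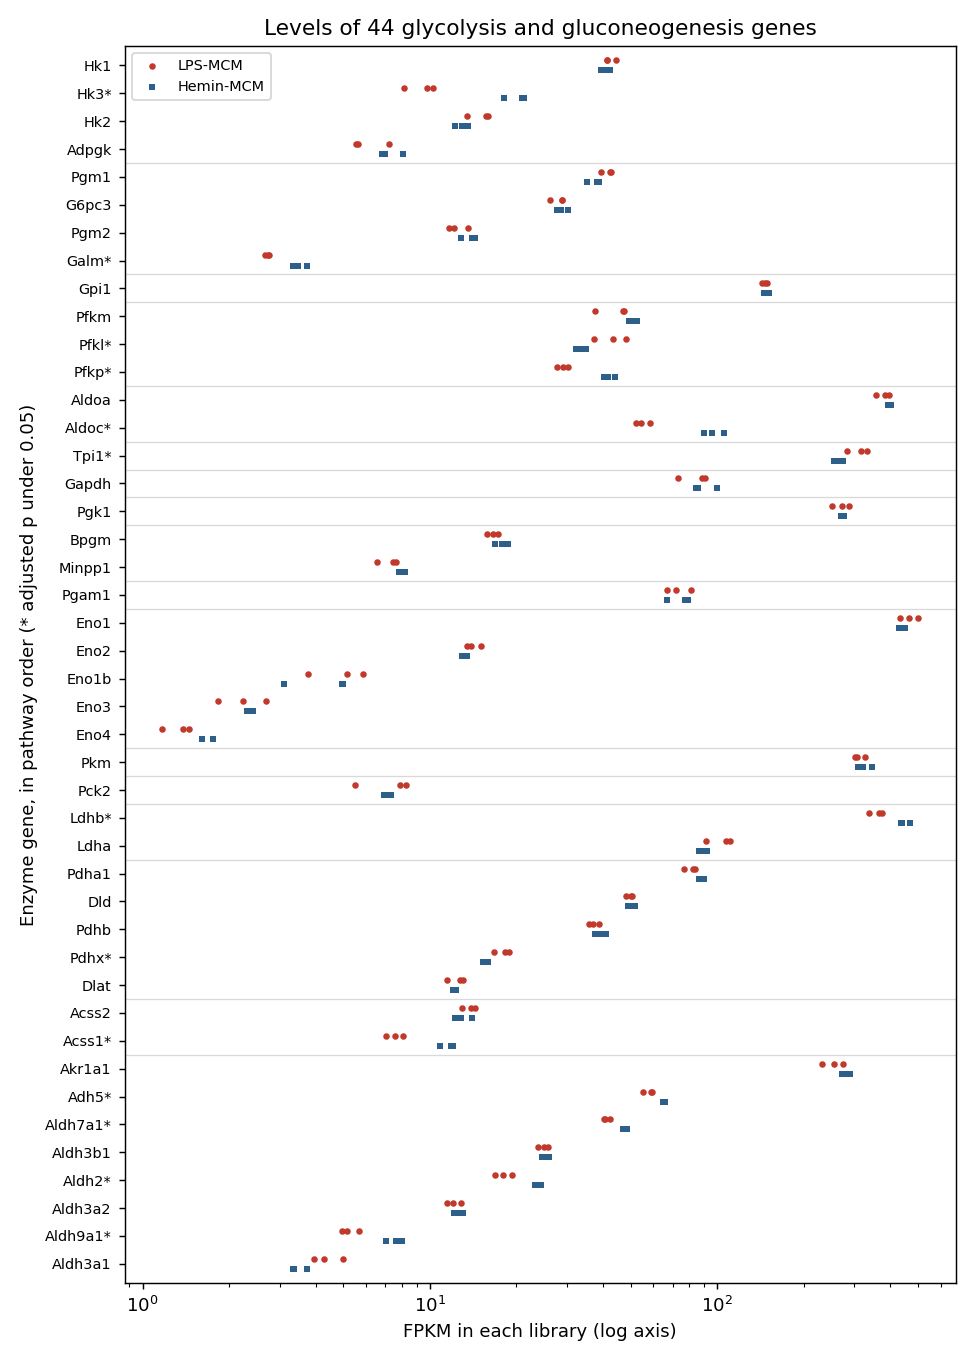
Levels of the enzymes in each library, in FPKM on a log axis, ordered by step, with 3 points for LPS-MCM and 3 for Hemin-MCM per gene. Many genes overlap between the groups. Hk3, Pfkp, Aldoc, Ldhb and Acss1 lie lower in LPS-MCM without overlap, as do others such as Aldh2 and Aldh9a1, while Pfkl and Tpi1 lie higher.

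The most abundant transcripts of the pathway were mostly those of aldolase and the later steps, and of the 7 highest in LPS-MCM, Tpi1 was higher, Ldhb was lower and 5 did not pass the threshold. FPKM is scaled by transcript length, so levels can be set side by side. In LPS-MCM the order was Eno1 (466 ± 33.2 FPKM), Aldoa (381 ± 20.2), Ldhb (359 ± 18.6), Pkm (313 ± 13.7), Tpi1 (311 ± 24.1), Pgk1 (270.4 ± 18.0) and Akr1a1 (254 ± 20.9, SD, n = 3 each). In Hemin-MCM the first 3 were Ldhb (449 ± 17.1 FPKM), Eno1 (443 ± 11.8) and Aldoa (398 ± 5.11), and Ldhb and Eno1 overlapped there. Gapdh was at 84.2 ± 9.72 FPKM in LPS-MCM and 90.0 ± 8.40 FPKM in Hemin-MCM, well under its neighbours in the pathway. Gapdh and several other genes of these steps have many processed pseudogenes, and how the authors counted fragments shared with such copies is not given in the sources used here, so these levels are uncertain. The same holds for Eno1b, a retrotransposed copy of Eno1.

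Hexokinase traps glucose in the cell as glucose-6-phosphate, and the one called gene of this step was Hk3. Hk3 (chromosome 13, 55005985 to 55021475), the form known from myeloid cells, was at 9.79, 10.2 and 8.11 FPKM in LPS-MCM, against 18.2, 21.0 and 21.4 FPKM in Hemin-MCM. Every LPS-MCM library lay below every Hemin-MCM library, and the log2 difference was -1.03 ± 0.09 (SE, limma adjusted p = 3.16e-05). The 12 microglia and macrophage markers all had negative differences, spread from -2.34 to -0.09 with a median of -1.11. Cd68 (-1.14), Lyz2 (-1.10) and P2ry12 (-1.12) lay near Hk3, and Itgam (-0.13) and Ptprc (-0.09) did not pass the threshold. The share of such cells in the difference of Hk3 was not tested. Hk1 (chromosome 10, 62268855 to 62379920), the constitutive brain form, was at 41.3, 44.6 and 41.3 FPKM in LPS-MCM and 39.5, 40.3 and 42.5 FPKM in Hemin-MCM. Its groups overlapped (0.05 ± 0.05, adjusted p = 0.532). Hk2 (chromosome 6, 82725025 to 82774454), the form induced by growth and hypoxia signals, was at 15.9, 15.7 and 13.5 FPKM in LPS-MCM and 12.9, 12.2 and 13.6 FPKM in Hemin-MCM. The third LPS-MCM library lay within the Hemin-MCM range, and Hk2 missed the threshold (0.20 ± 0.07, adjusted p = 0.0781). Its adjusted p was 0.0120 with that library left out, and after median-of-ratios scaling 0.0423. The ADP-dependent glucokinase Adpgk, at 6.12 ± 0.933 FPKM in LPS-MCM and 7.28 ± 0.671 FPKM in Hemin-MCM, did not pass (adjusted p = 0.144), but had an adjusted p of 0.0232 without the second LPS-MCM library.

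Hk1 supplied the largest share of hexokinase transcripts in both groups, and the balance of the others differed. Of the summed FPKM of Hk1, Hk2 and Hk3, Hk1 took 61.6, 63.1 and 65.7% in LPS-MCM and 55.9, 54.8 and 54.8% in Hemin-MCM. Hk3 took 14.6, 14.5 and 12.9% in LPS-MCM and 25.7, 28.5 and 27.6% in Hemin-MCM, a difference of -13.3 percentage points. Hk2 took 22.4 ± 1.17% in LPS-MCM and 17.5 ± 0.862% in Hemin-MCM. None of these shares overlapped between the groups, and each had an exact two-sided permutation p of 0.1, the smallest that 3 against 3 libraries can give (0.15 adjusted by Benjamini and Hochberg over the 18 shares compared). With Hk3 left out, a calculation added after the values were seen, Hk1 took 73.9 ± 1.61% of Hk1 and Hk2 in LPS-MCM and 76.0 ± 0.740% in Hemin-MCM, and the groups overlapped (exact permutation p = 0.2). The higher share of Hk1 in LPS-MCM was seen in the sum with Hk3, and no difference was resolved without Hk3.

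The enzymes around glucose-6-phosphate showed 1 call. Galm, the aldose mutarotase that interconverts the anomers of glucose, was at 2.75, 2.74 and 2.66 FPKM in LPS-MCM and 3.34, 3.48 and 3.73 FPKM in Hemin-MCM. The groups did not overlap and Galm was lower in LPS-MCM (-0.28 ± 0.07, limma adjusted p = 0.0167), with adjusted p between 0.00774 and 0.0821 over the 12 alternatives and the highest value without the third Hemin-MCM library. Pgm1, the main phosphoglucomutase, which links glycolysis with glycogen, was at 42.4, 42.6 and 39.4 FPKM in LPS-MCM and 35.1, 38.1 and 38.8 FPKM in Hemin-MCM. Its groups did not overlap either, but it missed the threshold (0.15 ± 0.06, adjusted p = 0.0929). It passed with the third LPS-MCM library left out (adjusted p = 0.0392) and after median-of-ratios scaling (0.0351). Pgm1 took 78.4, 77.9 and 74.4% of the summed FPKM of Pgm1 and Pgm2 in LPS-MCM and 71.4, 72.7 and 75.2% in Hemin-MCM, with overlap (exact permutation p = 0.2, 0.257 adjusted). Pgm2 and the ubiquitous glucose-6-phosphatase G6pc3 did not pass. Gpi1, the isomerase that makes fructose-6-phosphate, was at 144, 147 and 149.7 FPKM in LPS-MCM and 145, 152 and 150.0 FPKM in Hemin-MCM, a difference of -0.02 ± 0.05.

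Phosphofructokinase catalyses the rate-setting step of glycolysis, and its liver and platelet forms differed in opposite directions. Pfkl (chromosome 10, 77986947 to 78009807), the liver form, was at 43.3, 48.2 and 37.2 FPKM in LPS-MCM and 32.2, 34.8 and 33.8 FPKM in Hemin-MCM. The groups did not overlap, and Pfkl was higher in LPS-MCM (0.34 ± 0.08, limma adjusted p = 0.0170). The adjusted p of Pfkl ran from 0.00120 to 0.0648 over the alternatives, and it missed the threshold without the first LPS-MCM library (0.0515), without the first Hemin-MCM library (0.0648), without the third Hemin-MCM library (0.0523) and with no filter on low genes (0.0615). Pfkp (chromosome 13, 6579874 to 6649060), the platelet form, which is also expressed in brain, was at 29.0, 30.2 and 27.6 FPKM in LPS-MCM, against 41.8, 40.4 and 44.3 FPKM in Hemin-MCM. Every LPS-MCM library lay well below the lowest Hemin-MCM library. Pfkp was lower in LPS-MCM (-0.53 ± 0.05, limma adjusted p = 0.000104) and passed under all 12 alternatives. Pfkm (chromosome 15, 98092589 to 98132447), the muscle form, was at 47.3, 46.9 and 37.7 FPKM in LPS-MCM and 49.3, 51.8 and 52.5 FPKM in Hemin-MCM, and missed the threshold (-0.22 ± 0.08, adjusted p = 0.0838).

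The balance of the 3 phosphofructokinase transcripts differed between the media, and no form took more than 40.8% of the sum in any library. Pfkl took 36.2, 38.5 and 36.2% of the summed FPKM in LPS-MCM and 26.1, 27.4 and 25.9% in Hemin-MCM. Pfkp took 24.3, 24.1 and 26.9% in LPS-MCM and 33.9, 31.8 and 33.9% in Hemin-MCM. Pfkm took 39.6, 37.4 and 36.8% in LPS-MCM and 40.0, 40.8 and 40.2% in Hemin-MCM, a smaller difference of -2.38 percentage points. Pfkl and Pfkm were close in LPS-MCM, with Pfkl ahead in 1 of the 3 libraries, while Pfkl had the smallest share in every Hemin-MCM library. None of the 3 shares overlapped between the groups (exact permutation p = 0.1 each, 0.15 adjusted). The sum of the 3 forms was 116 ± 11.8 FPKM in LPS-MCM and 127 ± 3.63 FPKM in Hemin-MCM, with overlap (exact permutation p = 0.2).

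**Figure D2:**
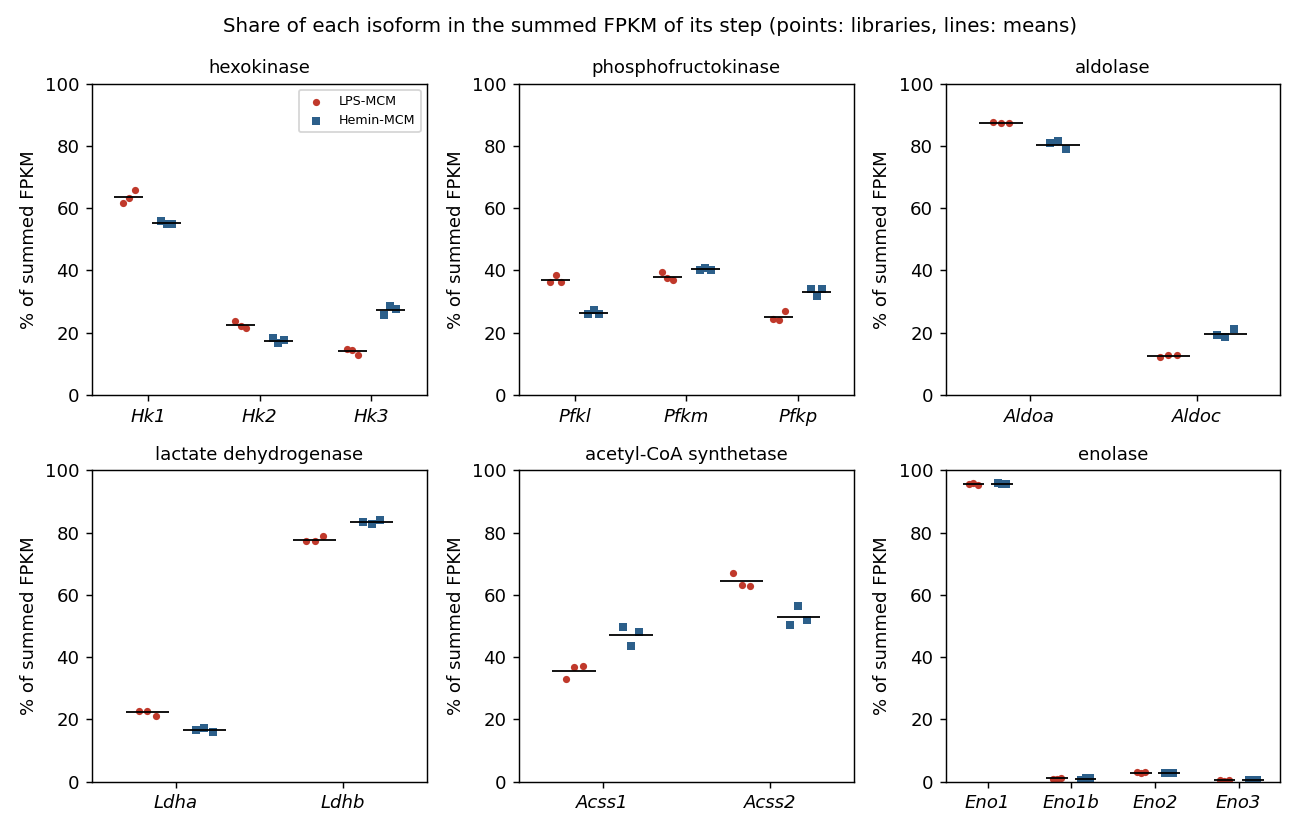
Share of each form in the summed FPKM of its step, in percent, for each library of LPS-MCM and Hemin-MCM. The Hk3, Pfkp, Aldoc and Acss1 shares are lower and the Pfkl and Ldha shares higher in every LPS-MCM library than in any Hemin-MCM library, and the enolase shares coincide.

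Aldolase cleaves fructose-1,6-bisphosphate into a pair of triose phosphates, and its brain form was the most strongly different enzyme after Hk3. Aldoc (chromosome 11, 78323073 to 78327781), which marks astrocytes in the brain, was at 54.1, 58.4 and 52.2 FPKM in LPS-MCM, against 95.7, 89.9 and 106 FPKM in Hemin-MCM. All LPS-MCM libraries were far below all Hemin-MCM libraries, and Aldoc was lower in LPS-MCM (-0.81 ± 0.07, limma adjusted p = 2.54e-05), with a call under all 12 alternatives. Aldoa (chromosome 7, 126795234 to 126800994), the widely expressed form, was at 385, 398 and 358 FPKM in LPS-MCM and 404, 396 and 395 FPKM in Hemin-MCM, which overlap (-0.07 ± 0.05, adjusted p = 0.455). Aldoc took 12.3, 12.8 and 12.7% of aldolase transcripts in LPS-MCM and 19.2, 18.5 and 21.1% in Hemin-MCM, a difference of -7.00 percentage points (exact permutation p = 0.1, 0.15 adjusted). The sum of the aldolase genes was 435 ± 23.1 FPKM in LPS-MCM and 495 ± 8.33 FPKM in Hemin-MCM without overlap (exact permutation p = 0.1, 0.24 adjusted over 12 sums). Beside Aldoc, other astrocyte markers did not share 1 direction: Gfap (-0.57), Aldh1l1 (-0.25), Slc1a3 (-0.16) and Gja1 (-0.23) were lower in LPS-MCM, while the glutamate transporter Slc1a2 was higher (0.38). Without the third Hemin-MCM library Aldh1l1 (0.0996), Slc1a3 (0.108) and Gja1 (0.0515) missed the threshold. Slc1a3 also missed it without any other library except the third LPS-MCM library (0.101 to 0.142). Aldh1l1 missed it without the first LPS-MCM (0.0580), the first Hemin-MCM (0.0601) or the second Hemin-MCM library (0.0502). After median-of-ratios scaling Aldh1l1 (0.0874) and Slc1a3 (0.195) missed it as well.

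The steps from triose phosphate to pyruvate showed 1 call. Tpi1 (chromosome 6, 124810586 to 124814158), which interconverts the triose phosphates, was at 317, 331 and 284 FPKM in LPS-MCM and 256, 275 and 263 FPKM in Hemin-MCM. The groups did not overlap and Tpi1 was higher in LPS-MCM (0.23 ± 0.06, limma adjusted p = 0.0301). This call was fragile: its adjusted p exceeded 0.05 without the first LPS-MCM library (0.0918), the second LPS-MCM library (0.0941) or any 1 Hemin-MCM library (0.107, 0.0519 and 0.10 without the first, the second and the third), with no filter (0.0777) and with no trend (0.0501). Gapdh, which makes NADH, differed by -0.10 ± 0.09, and the third LPS-MCM library was its lowest, at 73.0 FPKM. Pgk1 and Pkm make the ATP of the pathway. Pgk1 was at 273, 287 and 251 FPKM in LPS-MCM and 270, 277 and 273 FPKM in Hemin-MCM (-0.02 ± 0.06). Pkm was at 307, 328 and 302 FPKM in LPS-MCM and 310, 322 and 346 FPKM in Hemin-MCM (-0.06 ± 0.06), and gene-level values do not separate its splice forms. The mutase Pgam1, the bisphosphoglycerate mutase Bpgm and the phosphatase Minpp1 also failed to pass, with differences of -0.02, -0.10 and -0.14.

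For enolase, as for phosphoglucomutase, the isoform shares overlapped between the groups. Eno1 (chromosome 4, 150236708 to 150248879) was at 466, 499 and 433 FPKM in LPS-MCM and 429, 450 and 450.2 FPKM in Hemin-MCM. Of the summed FPKM of Eno1, Eno1b, Eno2 and Eno3, which leaves out Eno4, it took 95.6 ± 0.364% in LPS-MCM and 95.7 ± 0.160% in Hemin-MCM, a difference of -0.093 percentage points with overlap (exact permutation p = 0.9). Eno2, the neuronal form, was at 14.1 ± 0.856 FPKM in LPS-MCM and 13.2 ± 0.271 FPKM in Hemin-MCM. Eno1b, the muscle form Eno3 and the sperm form Eno4 were below 6 FPKM in every library. None of the 5 enolase genes passed the threshold (limma, adjusted p from 0.138 to 0.722, with 1 of them, Eno4, at an unadjusted p of 0.0430).

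**Figure D3:**
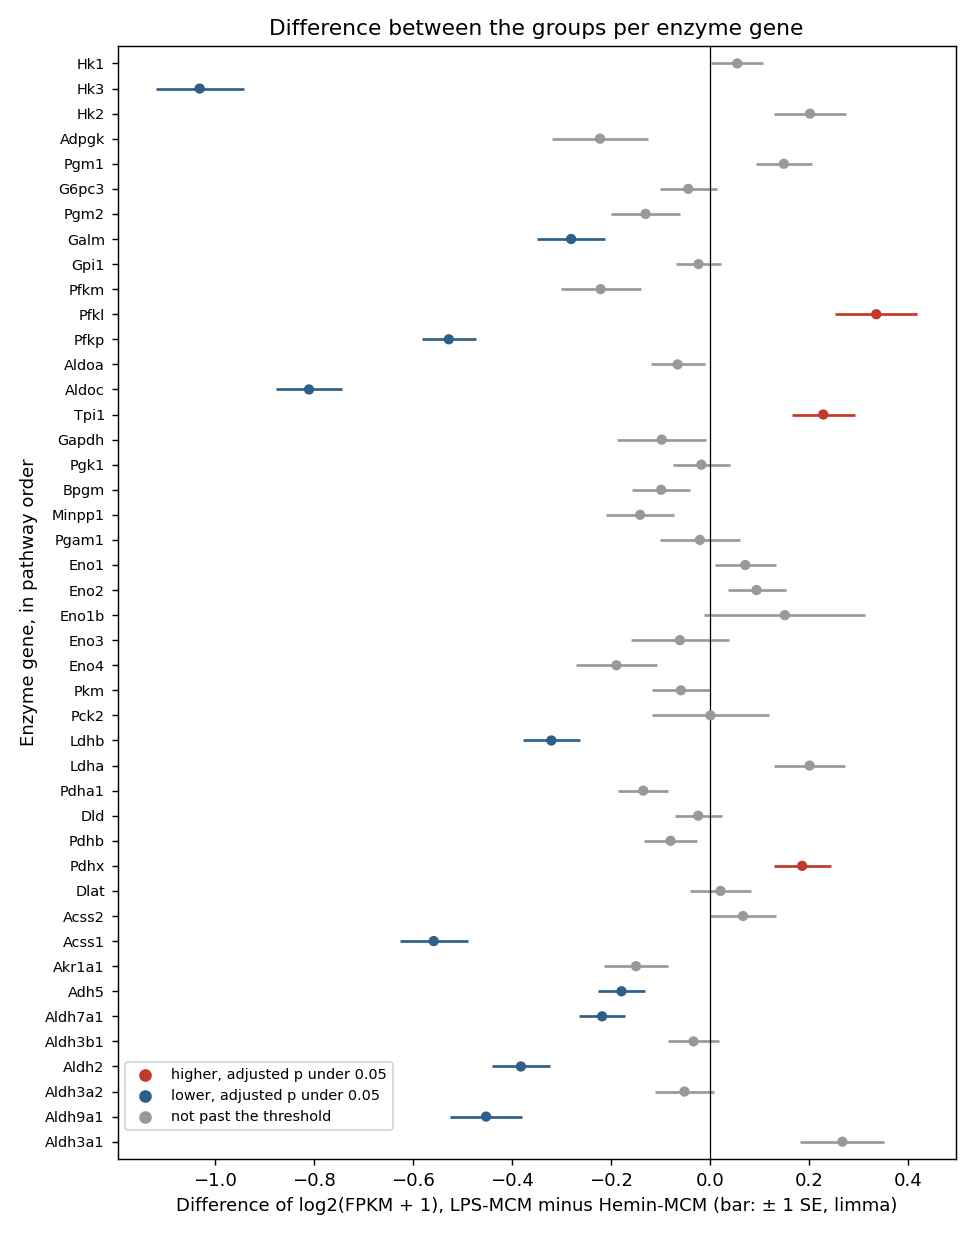
Log2 differences of the 44 enzymes, LPS-MCM minus Hemin-MCM, with bars of 1 SE, grouped by step. The lowest value is that of Hk3 at -1.03 and the highest that of Pfkl at 0.34. Most enzymes of the steps from Gapdh to Pkm lie near 0.

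Lactate dehydrogenase interconverts pyruvate and lactate, and the muscle form had a larger share of its transcripts in LPS-MCM. Ldhb (chromosome 6, 142490249 to 142507957), the heart form, was at 365, 374 and 338 FPKM in LPS-MCM, against 437, 442 and 468 FPKM in Hemin-MCM. The groups were well separated and Ldhb was lower in LPS-MCM (-0.32 ± 0.06, limma adjusted p = 0.00297), again under all 12 alternatives. Ldha (chromosome 7, 46842274 to 46855627), the muscle form and a known HIF-1 target, was at 108, 110.5 and 91.2 FPKM in LPS-MCM and 86.4, 92.2 and 89.3 FPKM in Hemin-MCM. The third LPS-MCM library lay within the Hemin-MCM range, and Ldha missed the threshold (0.20 ± 0.07, adjusted p = 0.0751). Without that library its adjusted p was 0.00218. It also passed after median-of-ratios scaling (0.0401) and quantile normalization (0.0454). Ldha took 22.8, 22.8 and 21.2% of lactate dehydrogenase transcripts in LPS-MCM and 16.5, 17.3 and 16.01% in Hemin-MCM, a difference of 5.66 percentage points without overlap (exact permutation p = 0.1, 0.15 adjusted). In this share the third LPS-MCM library lay with its group. The sum over the lactate dehydrogenase genes was 462 ± 29.0 FPKM in LPS-MCM and 538 ± 17.7 FPKM in Hemin-MCM (exact permutation p = 0.1, 0.24 adjusted).

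Among the sums of the 12 steps, 5 did not overlap between the groups: hexokinase, aldolase, lactate dehydrogenase and acetyl-CoA synthetase were lower and phosphoglucomutase was higher in LPS-MCM, all at an exact permutation p of 0.1 (0.24 adjusted). The share of all tested genes without overlap is not given here, so this count has no background beside it. Hexokinase summed to 66.8 ± 3.90 FPKM in LPS-MCM and 73.9 ± 3.42 FPKM in Hemin-MCM. The other 7 sums overlapped, with p between 0.2 and 1. Enolase without Eno4 summed to 487 ± 32.8 FPKM in LPS-MCM and 463 ± 13.1 FPKM in Hemin-MCM, and pyruvate kinase summed to 313 ± 13.7 FPKM in LPS-MCM and 326 ± 18.7 FPKM in Hemin-MCM. The mitochondrial PEP carboxykinase Pck2, an enzyme of gluconeogenesis, was at 8.27, 7.90 and 5.48 FPKM in LPS-MCM and 6.92, 7.10 and 7.32 FPKM in Hemin-MCM. The third LPS-MCM library was the lowest of all 6 for this gene, and its group means differed by 0.0005 on the log2 scale (adjusted p = 0.999).

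The pyruvate dehydrogenase complex converts pyruvate to acetyl-CoA in mitochondria, and 1 of its 5 measured genes passed. Pdhx, the component that anchors the dihydrolipoyl dehydrogenase, was at 16.8, 18.3 and 18.9 FPKM in LPS-MCM and 15.7, 15.9 and 15.4 FPKM in Hemin-MCM. The groups did not overlap, and Pdhx was higher in LPS-MCM (0.19 ± 0.06, limma adjusted p = 0.0453). It was lost without the second (0.105) or the third (0.0930) LPS-MCM library, without the first (0.0985), the second (0.10) or the third (0.152) Hemin-MCM library, with no filter (0.0614) and with no trend (0.0617). The catalytic subunit Pdha1 was at 82.2, 76.5 and 83.5 FPKM in LPS-MCM and 90.1, 89.9 and 86.2 FPKM in Hemin-MCM. Its groups did not overlap, and its difference of -0.14 ± 0.05 missed the threshold (adjusted p = 0.0912; 0.0432 without the third LPS-MCM library). Pdhb, Dlat and Dld did not pass, with differences of -0.08, 0.02 and -0.02.

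Acetyl-CoA can also be made from acetate, and the mitochondrial enzyme of that reaction was lower in LPS-MCM. Acss1 (chromosome 2, 150618111 to 150668240) was at 7.02, 8.06 and 7.59 FPKM in LPS-MCM, against 12.1, 10.8 and 11.9 FPKM in Hemin-MCM. The groups were clearly apart (-0.56 ± 0.07, limma adjusted p = 0.000297), and Acss1 passed under all 12 alternatives. Its cytosolic and nuclear counterpart Acss2 was at 14.3, 13.9 and 12.9 FPKM in LPS-MCM and 12.2, 14.1 and 12.9 FPKM in Hemin-MCM, which overlap (0.07 ± 0.07, adjusted p = 0.543). Acss1 accordingly took 35.5 ± 2.32% of the pair in LPS-MCM and 47.1 ± 3.19% in Hemin-MCM (exact permutation p = 0.1, 0.15 adjusted).

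The KEGG pathway also includes alcohol and aldehyde dehydrogenases, and 4 of the 8 measured were lower in LPS-MCM, where 13.8% of all tested genes were lower. Aldh2, the mitochondrial enzyme that oxidises acetaldehyde, was at 16.9, 19.3 and 18.0 FPKM in LPS-MCM, against 23.2, 23.9 and 24.4 FPKM in Hemin-MCM (-0.38 ± 0.06, limma adjusted p = 0.00120). Aldh9a1, which acts on aminobutyraldehyde, was at 4.95, 5.67 and 5.14 FPKM in LPS-MCM, against 7.02, 7.64 and 8.03 FPKM in Hemin-MCM (-0.45 ± 0.07, adjusted p = 0.00152). Aldh7a1, an enzyme of lysine breakdown, was at 42.5, 40.2 and 40.7 FPKM in LPS-MCM, against 48.2, 47.1 and 48.7 FPKM in Hemin-MCM (-0.22 ± 0.05, adjusted p = 0.00776). In all 3 genes the groups were separate, and the 3 calls held under all 12 alternatives. Adh5, which removes formaldehyde and S-nitrosoglutathione, was at 58.7, 59.2 and 55.0 FPKM in LPS-MCM and 64.8, 65.8 and 65.4 FPKM in Hemin-MCM. Its groups were separate and it was lower (-0.18 ± 0.05, adjusted p = 0.0236). The call was lost without the first (0.0597), the second (0.0876) or the third (0.0872) Hemin-MCM library, with no trend (0.0501) and after median-of-ratios scaling (0.126). Aldh3a1, a detoxifying enzyme, was at 3.96, 4.99 and 4.27 FPKM in LPS-MCM and 3.36, 3.35 and 3.75 FPKM in Hemin-MCM, separate but just short of the threshold (0.27 ± 0.08, adjusted p = 0.0507). It passed without the first LPS-MCM library (0.0361), after median-of-ratios scaling (0.0262) and quantile normalization (0.0166), and with no trend (0.0446). The aldehyde reductase Akr1a1, at 254 ± 20.9 FPKM in LPS-MCM and 281 ± 8.61 FPKM in Hemin-MCM, passed only after quantile normalization (0.0264) and without the second LPS-MCM library (0.0496). Aldh3a2 and Aldh3b1 did not pass, with differences of -0.05 and -0.03.

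Of the 13 called enzymes, 8 were called under all 12 alternatives, and all of these were lower in LPS-MCM: Hk3, Pfkp, Aldoc, Ldhb, Acss1, Aldh2, Aldh7a1 and Aldh9a1. Their log2 differences ran from -1.03 to -0.22. Each of the early-step genes among them has a counterpart at the same step that did not pass or differed in the other direction: Hk1 and Hk2 beside Hk3, Pfkl beside Pfkp and Aldoa beside Aldoc. The difference between isoforms within a step was measured as the shares given above, whose smallest possible p is 0.1.

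The genes that feed, drain and control the pathway were counted from lists chosen with earlier results of these data known. Of 9 glucose transporters, 6 were measurable, 2 were higher and none was lower in LPS-MCM. Over all tested genes, 6.72% were higher and 13.8% were lower. At an unadjusted limma p under 0.05, 2 of the transporters were higher and 1 was lower. Slc2a1, the main transporter of brain glia, was at 35.6 ± 2.40 FPKM in LPS-MCM and 31.1 ± 0.827 FPKM in Hemin-MCM (0.19 ± 0.06, adjusted p = 0.0450), and Slc2a6, a lysosomal transporter of inflammatory macrophages, at 26.2 ± 2.15 FPKM in LPS-MCM and 20.9 ± 1.73 FPKM in Hemin-MCM (0.31 ± 0.07, adjusted p = 0.0151). Slc2a1 missed the threshold when any 1 library but the third of LPS-MCM was left out (0.0864 and 0.128 for the first and the second LPS-MCM libraries, 0.0974, 0.153 and 0.0942 for the first, the second and the third Hemin-MCM libraries), and Slc2a6 missed it without the first LPS-MCM (0.0587), the first Hemin-MCM (0.0555) or, in that group, the third library (0.0701). Of the lactate transport genes, 4 of 6 were measurable. The monocarboxylate transporter Slc16a1 was at 199 ± 11.5 FPKM in LPS-MCM and 143 ± 5.19 FPKM in Hemin-MCM, higher by 0.47 ± 0.06 (adjusted p = 0.000242) under all 12 alternatives. Slc16a3, the lactate exporter of glycolytic cells, differed by 0.22 ± 0.07 (adjusted p = 0.0477) and Emb, an ancillary protein of these transporters, by -0.28 ± 0.08 (adjusted p = 0.0293). Both were lost when the first LPS-MCM library was left out (0.101 and 0.102), and also without the second LPS-MCM (0.137 for Slc16a3), the third LPS-MCM (0.0518 for Emb), the first Hemin-MCM (0.158 and 0.0799), the second Hemin-MCM (0.118 and 0.105) or, for Emb, the third library of Hemin-MCM (0.0502). Emb also missed the threshold after median-of-ratios scaling (0.0570) and quantile normalization (0.0831). The partner protein Bsg was at 247 FPKM in both groups.

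Fructose-2,6-bisphosphate is the allosteric activator of phosphofructokinase. Among the 4 measurable genes that make or degrade it 1 passed (25.0%, beside 20.5% of all tested genes). Pfkfb3, the form with high kinase activity, was at 79.8 ± 1.56 FPKM in LPS-MCM and 57.9 ± 0.502 FPKM in Hemin-MCM (SD, n = 3 each), higher by 0.46 ± 0.04 (limma adjusted p = 6.35e-05) under all 12 alternatives. Pfkfb2, Pfkfb4 and Tigar did not pass, with differences of -0.19, -0.22 and -0.14. Among 11 measurable regulators of glycolytic genes, 1 was higher and 1 was lower (18.2% called in all). Hif1a, the oxygen-regulated subunit of HIF-1, was at 120 ± 6.99 FPKM in LPS-MCM and 71.3 ± 3.20 FPKM in Hemin-MCM (0.74 ± 0.06, adjusted p = 1.60e-05). Txnip, which restrains glucose uptake, was at 28.6 ± 0.775 FPKM in LPS-MCM and 47.9 ± 0.754 FPKM in Hemin-MCM (-0.73 ± 0.05, adjusted p = 4.85e-06). Both passed under all 12 alternatives. Arnt, the partner subunit of HIF-1, the prolyl hydroxylases Egln1, Egln2 and Egln3, and Myc did not pass.

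**Figure D4:**
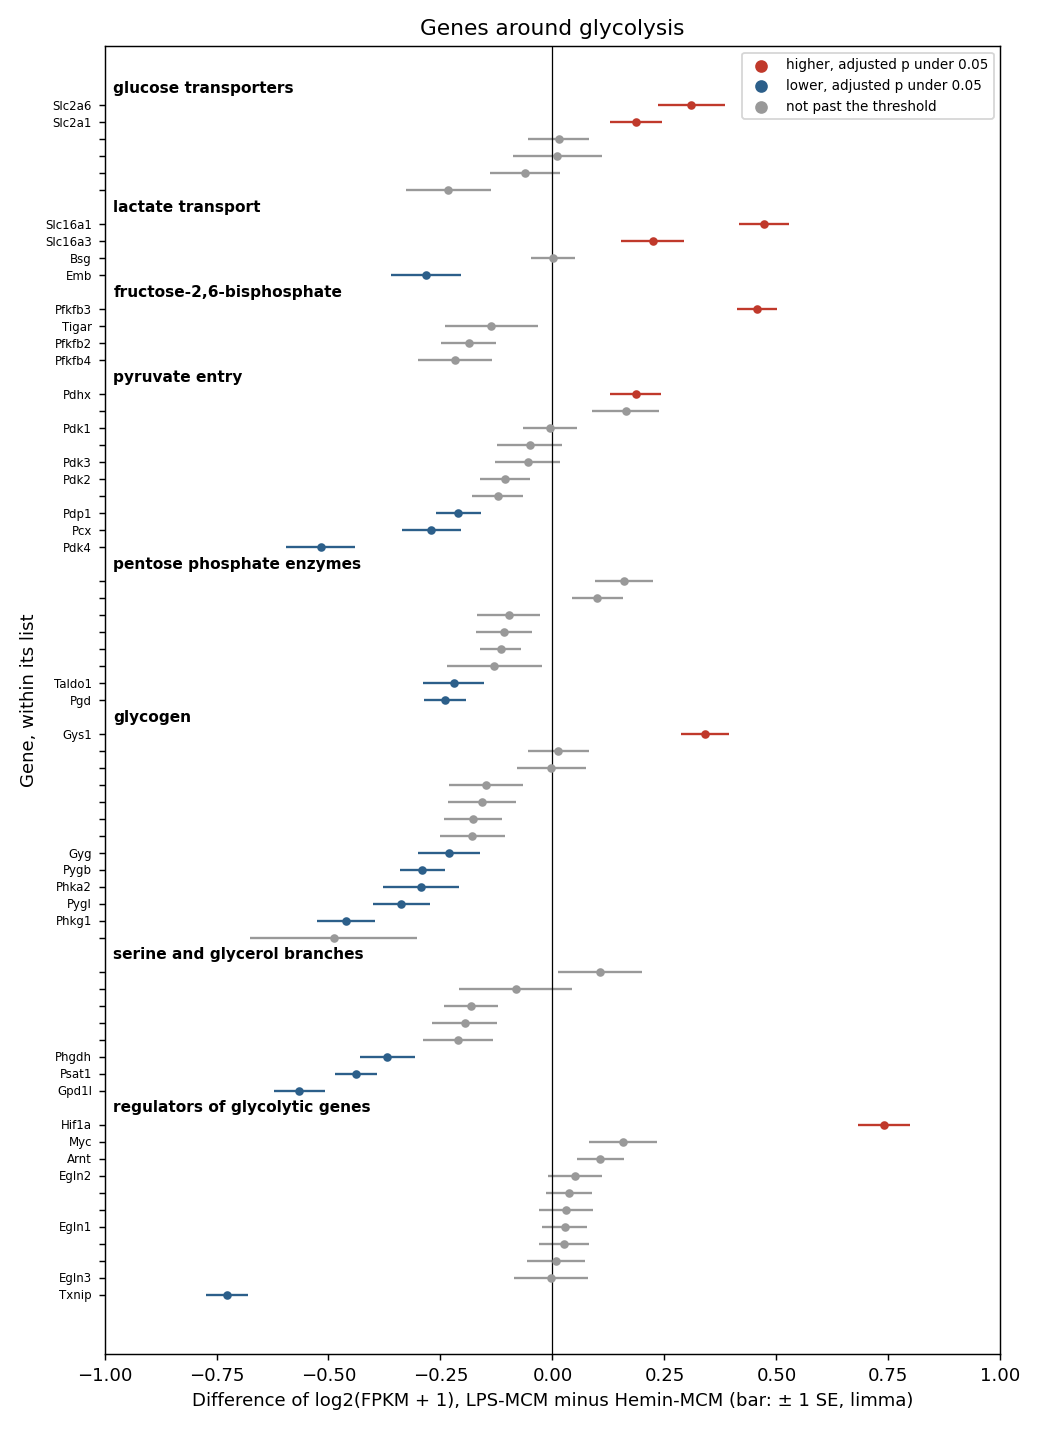
Log2 differences, LPS-MCM minus Hemin-MCM, with bars of 1 SE, for reported genes of transport, regulation and branch pathways, with grey points without a label for genes that did not pass and are not named in the text. Hif1a (0.74), Slc16a1 (0.47) and Pfkfb3 (0.46) are the highest of these, and Txnip (-0.73) and Gpd1l (-0.57) the lowest.

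In the branches that leave the pathway, calls of lower genes outnumbered those of higher genes in LPS-MCM, as they did over all tested genes (6.72% higher and 13.8% lower). Of 14 measurable glycogen genes, 1 was higher and 6 were lower, with a median of -0.20 beside -0.04 for all tested genes. Gys1, glycogen synthase, was at 24.3 ± 0.584 FPKM in LPS-MCM and 19.0 ± 0.863 FPKM in Hemin-MCM (0.34 ± 0.05, limma adjusted p = 0.00130). The glycogen phosphorylases Pygb (-0.29 ± 0.05, adjusted p = 0.00275) and Pygl (-0.34 ± 0.06, adjusted p = 0.00422) and the phosphorylase kinase subunit Phkg1 (-0.46 ± 0.06, adjusted p = 0.000697) were lower. These 4 passed under all 12 alternatives, whereas the calls of Gyg and Phka2 did not. Their highest adjusted p when 1 library was left out were 0.119 for Gyg (the first of Hemin-MCM) and 0.140 for Phka2 (the third of Hemin-MCM). Each also missed the threshold without the first LPS-MCM library (0.0684 and 0.0743) and without at least 1 more. Median-of-ratios scaling (0.113 and 0.0631) and quantile normalization (0.0594 and 0.155) lost both calls too. Of 8 genes of serine synthesis and glycerol phosphate, none was higher and 3 were lower (limma, at an unadjusted p under 0.05 it was 0 higher and 6 lower). Phgdh and Psat1, which divert 3-phosphoglycerate to serine, differed by -0.37 ± 0.06 (adjusted p = 0.00192) and -0.44 ± 0.05 (adjusted p = 0.000115), and the glycerol-3-phosphate dehydrogenase-like gene Gpd1l by -0.57 ± 0.06 (adjusted p = 8.71e-05). Of 8 pentose phosphate enzymes, Pgd (-0.24 ± 0.05, adjusted p = 0.00517) and Taldo1 (-0.22 ± 0.07, adjusted p = 0.0458) were lower and 6 did not pass. The Taldo1 call was lost without the first LPS-MCM library (0.0565) or without the first (0.0774), the second (0.148) or the third (0.122) Hemin-MCM library. It was also lost after median-of-ratios scaling (0.153), with no filter (0.105) and with no trend (0.0746).

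Around the entry of pyruvate into mitochondria, 1 of 10 genes was higher (Pdhx) and 3 were lower. Pdk4, a kinase that inactivates pyruvate dehydrogenase, was at 3.59 ± 0.369 FPKM in LPS-MCM and 5.56 ± 0.236 FPKM in Hemin-MCM (-0.52 ± 0.08, limma adjusted p = 0.000972), while Pdk1, Pdk2 and Pdk3 did not pass. The activating phosphatase Pdp1 (-0.21 ± 0.05, adjusted p = 0.0135) and pyruvate carboxylase Pcx (-0.27 ± 0.07, adjusted p = 0.0155) were lower too. Each call was lost without 1 library, at 0.0578 without the first Hemin-MCM library for Pdp1 and 0.0744 without the third for Pcx. Median-of-ratios scaling lost both calls as well (0.0661 for Pdp1 and 0.0622 for Pcx). In the KEGG pathways next to glycolysis, 1 of 29 measurable genes of the TCA cycle was higher (Pdhx) and 4 were lower, with a median of -0.11. The 4 were Pcx, Idh1 (-0.27), Idh2 (-0.32) and Suclg1 (-0.18). Of 103 genes of oxidative phosphorylation, none was higher and 4 were lower (limma, 2 higher and 26 lower at an unadjusted p under 0.05), 3.88% called in all, beside 6.72% higher and 13.8% lower over all tested genes, with a median of -0.09.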

How the data were processed

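RNA of mouse astrocyte cultures was analysed from the authors' deposited table of FPKM per gene. The submitters' processing notes list mm10 as the build and DESeq as a tool, while no aligner, counter or annotation is named in the sources used here. Each column was assigned to a sample by its treatment and number. A further 3 value columns matched no sample title and were not used, so resting-microglia medium was not analysed here. FPKM are not counts, so limma 3.58.1 (R 4.3.3) was run on log2(FPKM + 1), with a mean-variance trend, on the 11688 genes that averaged at least 1 FPKM in 6 libraries (4 residual degrees of freedom). Tests were two-sided with Benjamini-Hochberg adjustment over all tested genes and a threshold of 0.05. Fold changes on this scale understate those of low genes. The script was tested on simulated data.

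Isoform shares and step sums were compared by exact permutation tests of 3 against 3 libraries. In step sums, annotated rows below the floor are included. Depth was estimated from the steps of low FPKM values with GENCODE transcript lengths: 52.9 to 54.8% of 354 to 407 values per library lay within 0.1 of a whole fragment. It covers counting error only. Coordinates and promoters are from RefSeq on GRCm38.p6. All 44 members are reported. The values of some genes below the floor or in the lists are not reported here. Members, lists, motifs and tests were chosen with earlier results of these data known. Alternatives were a pseudocount of 0.1, no filter, median-of-ratios scaling, quantile normalization, a replicate block, no trend and leaving out each library.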

Additional observations from a re-analysis of the deposited data

How the results depend on the processing

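Of the 13 called enzymes, 8 were called under all 12 alternatives, and 7 of the 31 others under at least 1. The count of lower enzymes stayed between 8 and 12 in every alternative, 8 to 12 when 1 library was left out. The count of higher enzymes, 3, was 0 with no filter, 7 with median-of-ratios scaling, 5 with quantile normalization and 0 to 5 when 1 library was left out. A scaling shifted the median log2 difference of all tested genes from -0.04 to 0.01 (median-of-ratios), and the cause of the changed calls was not tested. Same-numbered libraries of the groups were not paired by the labels, and their deviations correlated at 0.0796, 0.107 and -0.106. With the replicate block, 2 enzymes were higher and 10 lower. The block left Pdhx (adjusted p = 0.0675), Slc2a1 (0.0675), Slc16a3 (0.0577), Slc1a3 (0.0660) and Phka2 (0.0526) short of the threshold.

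Median-of-ratios scaling turned the sums of phosphoglycerate kinase (difference 7.89 FPKM) and phosphoglycerate mutase (1.92 FPKM) to higher, and moved acetyl-CoA synthetase to -2.47 FPKM and phosphoglucomutase to 4.96 FPKM. Without Hk3, the share difference was -2.10 percentage points for Hk1 and 2.10 for Hk2. Leaving out 1 library gave share differences, in percentage points, of -0.283 to 0.0797 for Eno1, -0.0541 to 0.201 for Eno1b, -0.0341 to 0.182 for Eno2 and -0.091 to 0.00889 for Eno3. The sums ranged from -11.4 to 6.54 FPKM for phosphoglycerate kinase, -4.95 to 2.09 for phosphoglycerate mutase and -0.44 to 0.95 for PEP carboxykinase. Depth limits enzymes near 1 FPKM, such as Eno4, and 3 libraries a group cannot give an exact p below 0.1.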
